A study of Mus musculus with 6 samples.

Results

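Umod, Gp2, Umodl1, Tecta, Tectb, Zp1, Zp2 and Zp3 are the mouse genes for uromodulin and for 7 proteins that share its zona pellucida domain. They were picked by exact gene name from the gene annotation deposited with the study. All 8 were found among 38333 gene names, of which 22923 had coding (CDS) rows, and rows of the added construct were left out. The annotation described gene models on mm10 and held no expression values, so each value below is a property of a gene model, without replicates and without a test. The levels of these genes in the cells were not analysed here, and the labelled cell type was not checked against its markers.

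The study asked what the expression of mutant uromodulin does to cells of the thick ascending limb (TAL) of the kidney. RNA was sequenced from 6 libraries of mTAL cells at passage 3, with 3 libraries of cells that carried wild type uromodulin and 3 of cells that carried the C150S isoform. Both isoforms were human, were tagged with GFP and were brought in by a lentiviral vector under the spleen focus-forming virus promoter. Transduced cells were used as mixed populations, not as clones. Reads were counted per gene name over the exon rows of this annotation. The mTAL cells were an immortalised mouse line from dissected TAL segments in which TAL markers, uromodulin among them, were no longer seen according to the study. Both groups were grown in the same medium with interferon gamma and dexamethasone and harvested at confluence. C150S was therefore studied on a human protein in cells that also hold the mouse Umod gene described here.

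The zona pellucida (ZP) domain is a polymerisation module near the carboxyl end of many extracellular proteins, through which they assemble into filaments or matrices. It is rich in cysteines that form disulphide bonds. Apart from this domain, uromodulin has cysteines in other parts too, and a mutation of a cysteine in uromodulin is a known cause of protein retention in the endoplasmic reticulum. Uromodulin is the most abundant protein of normal urine and is made by TAL cells, GP2 is its close relative in the pancreas and in M cells of the gut, the tectorins build the tectorial membrane of the inner ear, and ZP1, ZP2 and ZP3 form the coat of the mouse egg.

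A coding junction is the place where 2 exons are joined in the coding sequence, and its phase is the number of bases of a codon that come before it. In all 8 genes, 1 junction of phase 2 was followed directly by a cysteine codon: the junction cut a codon after its second base, and the next whole codon was TGC or TGT. The 8 sequences are shown because this feature was found in every gene of the set. Each has 15 coding bases on either side of the junction, 5′ to 3′, and capitals mark the cysteine codon.
Umod: cattatccaggacagtTGTccacgtacaga
Gp2: catcatcaagaacagaTGCccaaaccaacg
Umodl1: cttcatcaacaacagcTGCcctgttcccaa
Tecta: catcatcgaaggaggaTGTcagaacatcaa
Tectb: gctcatcaataagggcTGCcccaccgatga
Zp1: tattctgtcagatgggTGTcctttcaaggg
Zp2: gattgtcatggatggcTGTgaatatgaact
Zp3: cgtggacttccacggtTGCcttgtggatgg

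These bases came from GENCODE release M21 transcripts on GRCm38, the assembly that mm10 names, read at the coding positions of the deposited gene models. The exons flanking the junction ended and began at chr7 119469242 and 119466224 on the minus strand in Umod, and at chr7 119450060 and 119449140 on the minus strand in Gp2. For Umodl1 the positions were chr17 30998847 and 30999067 on the plus strand, for Tecta chr9 42337106 and 42332570 on the minus strand, and for Tectb chr19 55189871 and 55191425 on the plus strand. For the egg coat genes they were chr19 10916434 and 10916335 (minus) in Zp1, chr7 120135152 and 120134043 (minus) in Zp2 and chr5 135984531 and 135985545 (plus) in Zp3.

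The cysteine codon was codon 528 of 642 in Umod, 419 of 534 in Gp2, 1210 of 1348 in Umodl1, 2001 of 2155 in Tecta and 235 of 339 in Tectb, counted from the start codon. It was codon 470 of 623 in Zp1, 559 of 713 in Zp2 and 240 of 424 in Zp3. The junction therefore sat between 319 coding bases (Tectb) and 559 coding bases (Zp3) from the end of the stop codon, and in every gene the next junction was in phase 0. Of 20531 coding genes with a full coding sequence, 2.49% had such a combination of a phase 2 junction, a cysteine codon directly after it and phase 0 at the next junction, against 8 of 8 here. Counted by junction, 3.99% of phase 2 junctions over the same genes were followed directly by a cysteine codon, against 8 of 20 in these genes, 1 in each. The combination was chosen after the sequences had been seen, and these shares describe it without testing it.

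**Figure D1:**
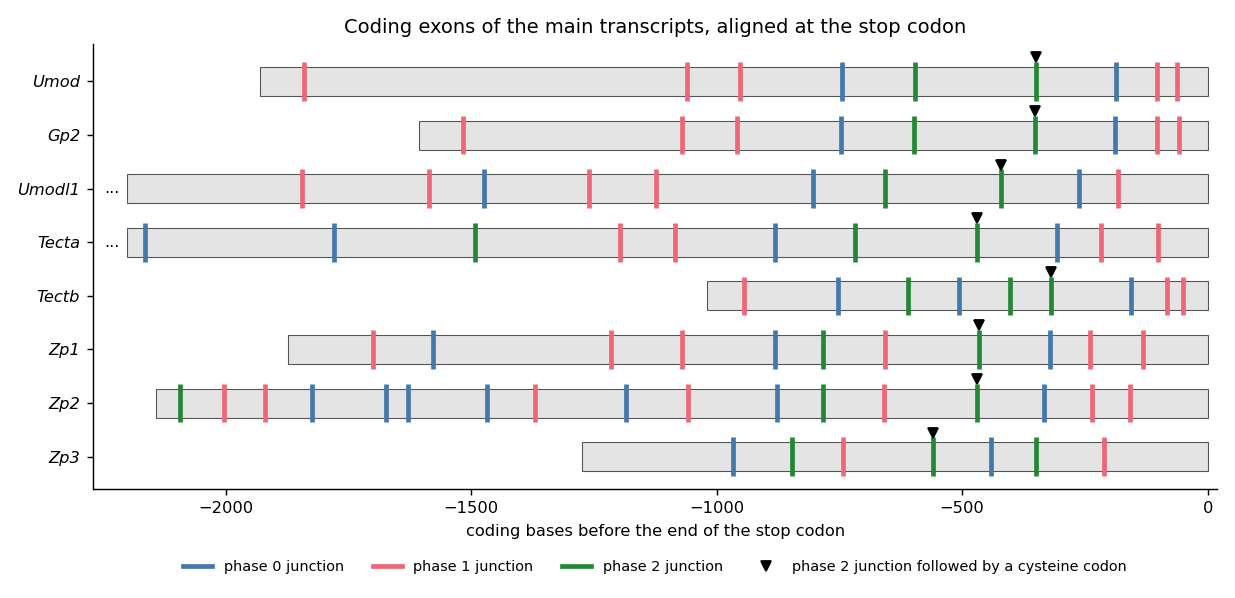
Coding exons (grey boxes) of the 8 main transcripts drawn to scale and aligned at the stop codon. The x axis gives coding bases before its end, cut off at 2200 bases (dots mark Umodl1 and Tecta, which extend further); coloured bars are junctions by phase and triangles mark the phase 2 junction followed by a cysteine codon, which lay 319 to 559 bases from the end in all 8 genes.

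Umod, the gene for uromodulin (ENSMUSG00000030963), spanned chr7:119462866-119479255 on the minus strand. A single transcript was annotated, with 11 exons of which 10 held coding bases. Its coding length was 1929 bases with the stop codon, its 5′ and 3′ untranslated lengths were 192 and 351 bases, and 78.0% of its exon bases were coding. Gp2 (ENSMUSG00000030954) lay at chr7:119442544-119459272, also on the minus strand and also with 1 transcript of 11 exons and 10 coding exons. Its coding length was 1605 bases, with untranslated lengths of 136 and 237 bases. Umod and Gp2 were direct neighbours, with 3593 bases between them and Gp2 on the downstream side of Umod.

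Exon by exon, Umod and Gp2 had nearly the same coding structure. The coding exons of Umod measured 88, 780, 108, 209, 149, 246, 163, 82, 42 and 62 bases. Those of Gp2 measured 88, 447, 111, 212, 149, 246, 163, 85, 45 and 59 bases. Thus 4 of 10 coding exons were equal in length, 5 differed by 3 bases, and the second coding exon was 333 bases, or 111 codons, longer in Umod. All 10 differences were whole codons, and 9 of 9 junctions had the same phase (1, 1, 1, 0, 2, 2, 0, 1 and 1). Without the second coding exon, the sum over the other exons was 9 bases shorter in Umod than in Gp2.

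The second coding exon was also where the cysteine codons differed. In Umod it held 32 of 48 cysteine codons, in 260 codons, and in Gp2 it held 12 of 30, in 149 codons. From the third to the tenth coding exon the counts were equal in both genes, at 5, 4, 1, 1, 4, 1, 0 and 0. The first coding exon had 0 cysteine codons in Umod and 2 in Gp2. The difference in cysteine codons between the genes was hence set by the first 2 coding exons.

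**Figure D2:**
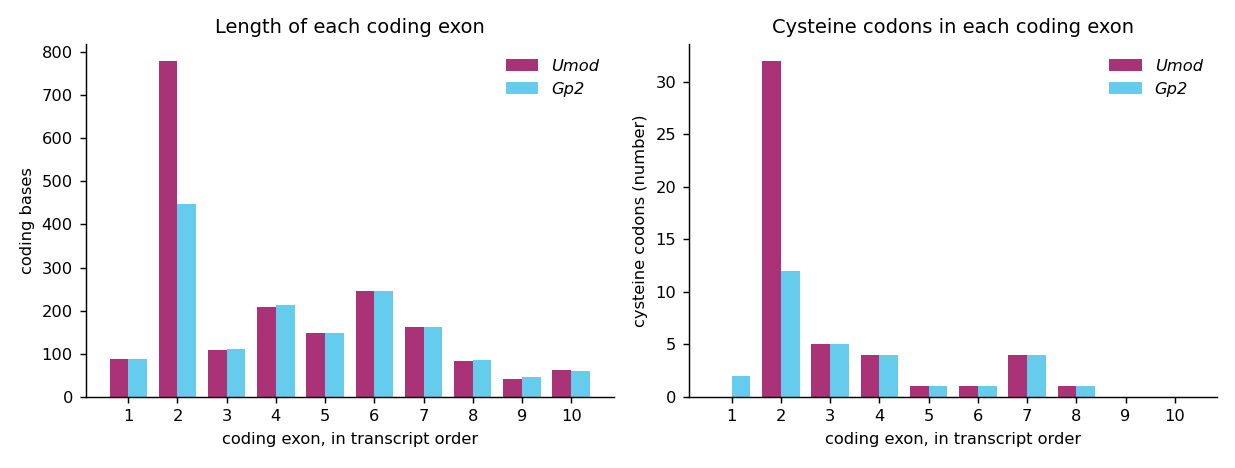
Coding bases (left) and number of cysteine codons (right) in each of the 10 coding exons of Umod and Gp2, numbered in transcript order. The second coding exon differs (780 against 447 bases, 32 against 12 cysteine codons), and from the third exon on the bars are equal or differ by 3 bases, with equal cysteine counts.

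Codon 150, the position numbered in the human C150S isoform, fell into the long second coding exon of mouse Umod. The mouse stretch from codon 145 to codon 154 is shown for that reason, with cysteine codons in capitals, and lies at chr7:119477080-119477109 on the minus strand.
Umod codons 145 to 154: tggtacTGTgagTGCtccccaggctccTGT
Cysteine codons stood at 147, 149 and 154, so 3 of these 10 codons encoded cysteine. The nearest to position 150 was codon 149. All 3 lay ahead of the residues of Umod that aligned with Zp1, Zp2 and Zp3, which began at 390, 387 and 390. The full human and mouse proteins were not aligned here. In the study's forward primer for C150S, the changed codon comes after TGT and GAG and before TCC. Codon 149 of mouse Umod has the same codons on either side, so the human number is shifted by 1 in this stretch. Human residue 150 thus stands at the mouse cysteine codon 149, and no difference between the species is read from the number 150.

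Translations of Umod and Gp2 aligned over 473 residues, of which 53.9% were identical, the highest share among the 28 pairs of the 8 genes. Within this alignment 8 junctions of Umod fell on 8 junctions of Gp2, at the same residue and in the same phase. The first junction was outside the alignment. Sequence around the second junction, which has the same phase in both genes, is shown with the codon cut by the junction in capitals.
Umod junction 2: tggcttactgcaccGATcctagttccgtgg
Gp2 junction 2: tgagatactgcacaGACccctccactgcac
In both, the codon cut by the junction was an aspartate codon, and the positions flanking it were chr7 119476674 and 119476589 in Umod and chr7 119454202 and 119452954 in Gp2, on the minus strand. Base by base, the coding exons of equal length matched at 71.2% of bases in the seventh (163 bases), 68.5% in the fifth, 61.8% in the sixth and 38.6% in the first. The longest run of identical coding bases between Umod and Gp2 was 19, and over the other 27 pairs it was at most 17.

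Introns did not follow this likeness. Between coding exons, the introns of Umod measured 745, 84, 3941, 849, 1846, 3017, 534, 689 and 1436 bases. At the same places Gp2 had 2512, 1247, 499, 484, 1194, 919, 1776, 1592 and 2640 bases. Introns were longer in Umod at 4 of 9 places, and none was of equal length.

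Scored over 11970 genes by inner coding exons that matched Umod in order, length and both phases, Gp2 came first, with a likeness of 0.375 (3 of 8 inner exons). The next genes were 1700055N04Rik, Aldh3b2, Gtpbp6 and Rpl10, all at 0.25, with 2 matched exons each. No other member of the 8 was among the 5 highest.

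Umodl1, the gene for uromodulin-like 1 (ENSMUSG00000054134), spanned chr17:30954679-31010708 on the plus strand, with 3 transcripts and 2 distinct coding sequences. The main transcript, taken as the one with the longest coding length, had 22 exons, 21 coding exons and 4047 coding bases. Its last coding exons measured 146, 237, 160, 79 and 182 bases, and the junctions before and between them had phases 0, 2, 2, 0 and 1. The transcript with the shorter coding sequence had 228 in place of 567 bases in the eleventh coding exon and 252 in place of 258 in the twelfth. Both differences were whole codons, 113 and 2. Among the 8 main transcripts, that of Umodl1 alone ended its coding part before the last exon, as did 4.31% of main transcripts of all coding genes.

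Upstream of the ZP domain, Umodl1 had a series of exons that came back. Coding exons 7, 8 and 9 measured 255, 113 and 220 bases, and coding exons 12, 13 and 14 measured 258, 113 and 214 bases, with the same phases. Their translations aligned over 191 residues with 29.8% identity. Coding exons 10 and 15, of 138 and 135 bases, held 6 cysteine codons each and aligned over 43 residues with 39.5% identity. The junctions before coding exons 6, 10 and 15 are shown because all 3 cut an aspartate codon, in capitals, with a cysteine codon 4 codons further on.
Umodl1 junction 5: gcatccaggtgcaaGACgtgaacgagtgtc
Umodl1 junction 9: ggacattcgtgcaaGACtgggatgagtgtg
Umodl1 junction 14: aaacttttatgcaaGATtacaacgagtgtg
The flanking positions, on the plus strand of chr17, were 30971973 and 30973694 for junction 5, 30984172 and 30984713 for junction 9, and 30992292 and 30994679 for junction 14.

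Tecta, the gene for alpha-tectorin (ENSMUSG00000037705), was the longest of the 8, at chr9:42329619-42399929 on the minus strand. Its main transcript had 24 exons, 23 coding exons and 6468 coding bases, and a second coding transcript was 15 bases, or 5 codons, shorter in the fifteenth coding exon. Coding exons 6 to 11 measured 413, 571, 593, 574, 602 and 562 bases, and junctions 5 to 11 alternated between phase 1 and phase 0. Coding exons 6 to 13 held 10, 13, 20, 14, 21, 12, 11 and 10 of its 146 cysteine codons. Translations of coding exons 7 and 8 aligned with those of 9 and 10 over 374 residues with 31.6% identity, and with those of 11 and 12 over 251 residues with 39.8% identity. Of its 10 phase 0 junctions, 4 in or next to this stretch of long exons are shown for their similar codons, with the last codon before the junction in capitals.
Tecta junction 6: tatgggaaagtcAAGgttaatgacctagtg
Tecta junction 8: gctttggaagtcAAGctaaatggtcaagat
Tecta junction 10: aagcacactgtgTTGgtcaacaatgagcgg
Tecta junction 13: cggaacactgtcAAGgtgaatggcacacaa
On the minus strand of chr9, the positions flanking junctions 6 and 8 were 42383995 and 42378064, and 42374992 and 42373420. Those flanking junctions 10 and 13 were 42366668 and 42359467, and 42347897 and 42345689. At 3 of these 4 junctions a lysine codon (AAG) came before the junction. In all 4 an asparagine codon (AAT or AAC) was the second codon after it. Junction 12, a phase 0 junction between junctions 10 and 13 that is not shown, had GAG before it and no asparagine codon at that place. AAG came before no other phase 0 junction of Tecta, and its share over all genes was not counted. The asparagine codon was not limited to the repeats. At that place it was found in 7 of the 10 phase 0 junctions of Tecta, junctions 2, 3 and 17 included. Over the 8 genes it was so at 9 of 34 phase 0 junctions, against 3.62% over the genes with a full coding sequence, and the other two were junction 4 of Umod and junction 4 of Gp2. The trait was chosen after the sequences had been seen.

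Tectb, the gene for beta-tectorin (ENSMUSG00000024979), was the shortest, with 1020 coding bases in 10 coding exons at chr19:55180733-55196313 on the plus strand. It had 6 transcripts, of which 4 were coding. Transcript ENSMUST00000025936 had 73 in place of 103 bases in the fourth coding exon, a difference of 10 codons. Of its 13 cysteine codons, 4 lay in the seventh coding exon, the one that follows the junction before a cysteine codon. In Umod, Gp2 and Umodl1 the exon at this place also had 4 cysteine codons, and in Tecta it had 5.

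The coding parts of Umod, Gp2, Tecta and Tectb all ended with junctions of phases 0, 2, 2, 0, 1 and 1. This run at the end was found in 12 genes, 0.114% of 10484 with enough junctions. These were the 4 named here, Zpld1 (another ZP domain gene), Aatk, Dtnb, Gm7534, Lmtk2, Ncapd2, Ppan and Sh3yl1. The shorter run 0, 2, 2, 0, 1 at any place was found in 5 of 8 genes, with Umodl1 as the fifth, against 2.71% of the 11971 genes with enough junctions. The exon between the phase 2 and the phase 0 junction of this run measured exactly 163 bases in Umod, Gp2, Tecta and Tectb and 160 in Umodl1. These lengths were not limited to the members. Among the other genes with the run at the end, this exon measured 163 bases in Sh3yl1, 160 in Gm7534 and 172 in Zpld1. In the rest it measured 97 (Dtnb) to 2869 bases (Lmtk2). An inner coding exon of 163 bases with these phases occurred in 1.60% of the 16861 genes with an inner coding exon. The exon before it, from phase 2 to phase 2, measured 246, 246, 237 and 249 bases in Umod, Gp2, Umodl1 and Tecta but 84 in Tectb.

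Zp1 (ENSMUSG00000024734) lay at chr19:10914287-10920632 on the minus strand, with 2 transcripts, 12 coding exons and 1872 coding bases. Zp2 (ENSMUSG00000030911) lay at chr7:120132361-120145290 on the minus strand, with 1 transcript, 18 coding exons and 2142 coding bases. Zp3 (ENSMUSG00000004948) lay at chr5:135980099-135988624 on the plus strand, with 2 transcripts, 8 coding exons and 1275 coding bases. None of the egg coat genes had the run 0, 2, 2, 0, 1. All 3 had the run 0, 2, 1, 2, 0 instead, which 2.59% of the 11971 genes with enough junctions had. Zp1 and Zp2 went on with 1 and 1 to the end, and the run 2, 1, 2, 0, 1, 1 at the end was found in 11 genes, 0.105% of those with enough junctions. Zp3 went on with 2 and 1.

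The egg coat genes thus had a phase 1 junction between the phase 2 junctions, where the other genes had none. The exons on either side of it, from phase 2 to 1 and from phase 1 to 2, measured 128 and 190 bases in Zp1, 125 and 190 in Zp2 and 104 and 184 in Zp3. The next exon, in which the cysteine codon follows the last base of the cut codon, measured 145, 136 and 118 bases, shorter than the 160 or 163 bases of the other 5 genes. This exon held 1 cysteine codon in all 3 genes. The exon after it held 4 in Zp1 and Zp2 and 2 in Zp3, where the next exon held 4. These runs of phases and the exon of 163 bases were chosen after the phases had been seen, so their shares are descriptions.

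In the alignments of translations, the junction before the cysteine codon was matched at the same residue in 28 of 28 pairs. The 3 pairs of egg coat genes shared 3 to 5 junctions in all, with 24.9% to 34.6% identity. The 10 pairs among Umod, Gp2, Umodl1, Tecta and Tectb shared 2 to 8 junctions, with 27.6% to 53.9% identity. The 15 mixed pairs shared 1 or 2 junctions, with 20.9% to 42.9% identity. These counts are limited by the number of junctions that each alignment covered. That of Tectb and Zp1 covered 1 junction of either gene, and that of Umod and Gp2 covered 8 of either gene. That of Umod and Zp1 covered 6 and 7 junctions, of which 2 were shared. The highest identity among the mixed pairs, for Tectb and Zp1, came from an alignment of 28 residues and cannot be set beside the others, which were 81 to 473 residues long.

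**Figure D3:**
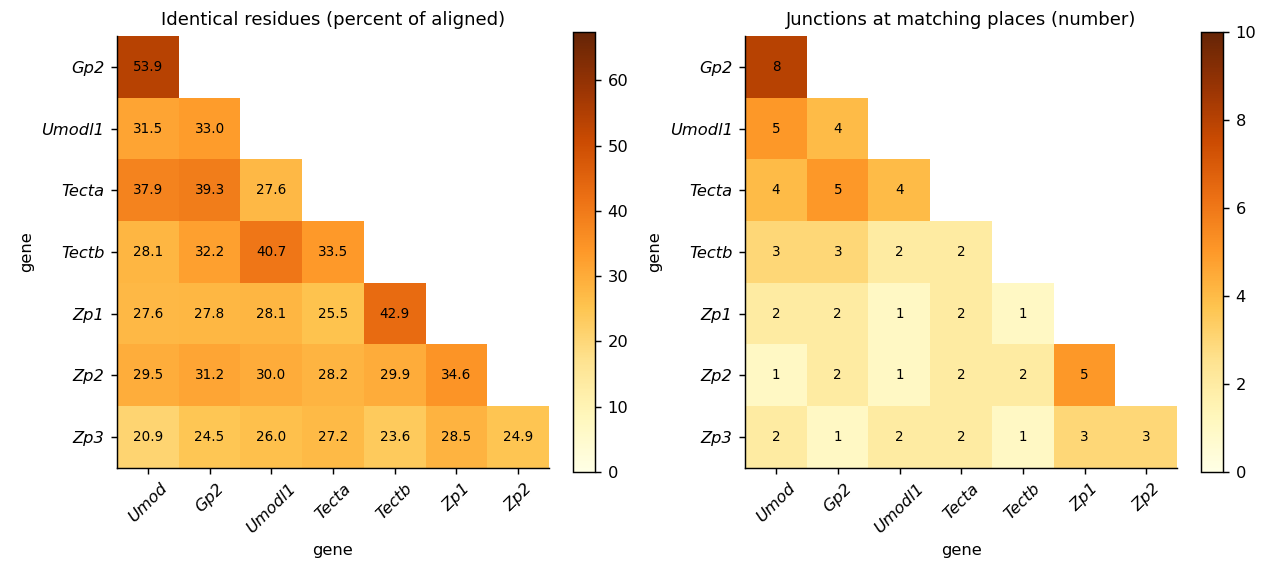
Percent of identical residues in local alignments (left) and number of junctions in the same phase within 2 aligned residues (right) for each of the 28 pairs, with the value in each cell. Umod and Gp2 share most (53.9%, 8 junctions), and the 15 pairs of an egg coat gene with a gene outside the egg coat share 1 or 2 junctions; the 42.9% of Tectb and Zp1 rests on 28 residues.

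Over the 8 main transcripts, 50 of 104 coding junctions (48.1%) were in phase 1, against 32.5% of 174733 junctions over all coding genes. By gene the share was 55.6% in Umod and Gp2, 65.0% in Umodl1, 40.9% in Tecta, 33.3% in Tectb, 54.5% in Zp1, 41.2% in Zp2 and 28.6% in Zp3. The share over the 8 genes was thus carried unevenly, and without Umodl1 it was 44.0%. Phase 0 made up 32.7% of these junctions, against 45.3% over all genes, and phase 2 made up 19.2% against 22.2%. Of 96 inner coding exons, 21 had phase 1 at both ends (21.9%, against 12.4% over all genes). Exons with the same phase at both ends keep the reading frame when they are added or left out. Counted over all 3 phases these made up 32 of 96 (33.3%), against 40.8% over all genes, and those with phase 0 at both ends made up 6.25% against 23.0%. Among exons with equal phases, only those with phase 1 at both ends were thus more frequent than over all genes. The first coding junction was in phase 1 in 6 of 8 genes, against 40.4% of the 18631 genes with a coding junction. Zp2 and Zp3 were the exceptions, with phases 2 and 0.

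**Figure D4:**
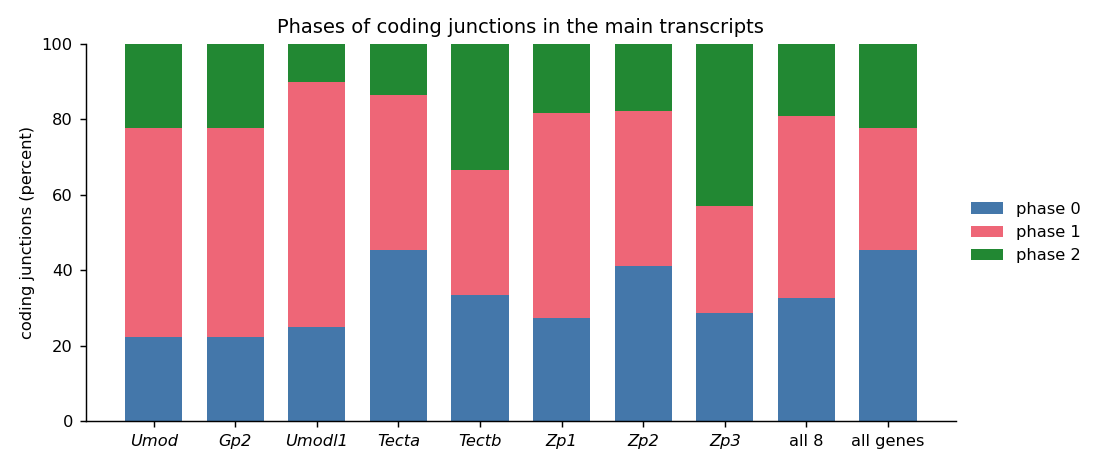
Share of coding junctions in phase 0, 1 and 2 (percent, stacked to 100) in the main transcript of each gene, over all 8 genes together and over all coding genes. Phase 1 made up 48.1% over the 8 genes and 32.5% over all genes, and ranged from 28.6% in Zp3 to 65.0% in Umodl1.

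Where a junction was in phase 1, the codon it cut was most often an aspartate codon. This was so for 17 of 50 phase 1 junctions, against 13.9% of phase 1 junctions over the 20531 genes with a full coding sequence. Aspartate was singled out after the cut codons had been seen, as the most frequent of them, so this share is a description. The 17 were 5 in Umodl1, 4 in Zp2 and 2 each in Umod, Gp2, Tectb and Zp1, and 0 in Tecta and Zp3. Cysteine codons made up 7.48% of the codons of Umod, 6.77% in Tecta and 5.62% in Gp2. In the other genes they made up 3.09% (Zp2) to 3.83% (Tectb). All 8 values were above the median of 2.13% over the coding genes with a full coding sequence, and 3 of 8 were above 5%, against 7.79% of those genes.

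The coding length was longer than the median of all coding genes (1113 bases) in 7 of 8 genes, the exception being Tectb, with a median of 1900.5 bases over the 8. The number of coding exons was above the median of all coding genes (6) in 8 of 8. Untranslated sequence was short in the egg coat genes, where both ends together came to 91 bases in Zp1, 58 in Zp2 and 48 in Zp3. It came to 543 bases in Umod, 373 in Gp2, 994 in Umodl1, 870 in Tecta and 329 in Tectb, and the median over all coding genes was 748. These are values of the main transcripts. Another coding transcript of Tectb, ENSMUST00000025936, had 130 and 1605 untranslated bases at its 5′ and 3′ ends, above that median. Zp1, Zp2 and Zp3 were coding over 95.4%, 97.4% and 96.4% of their exon bases. The first exon held no coding bases in 4 of 8 genes (Umod, Gp2, Tecta and Tectb), against 29.4% of all coding genes.

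**Figure D5:**
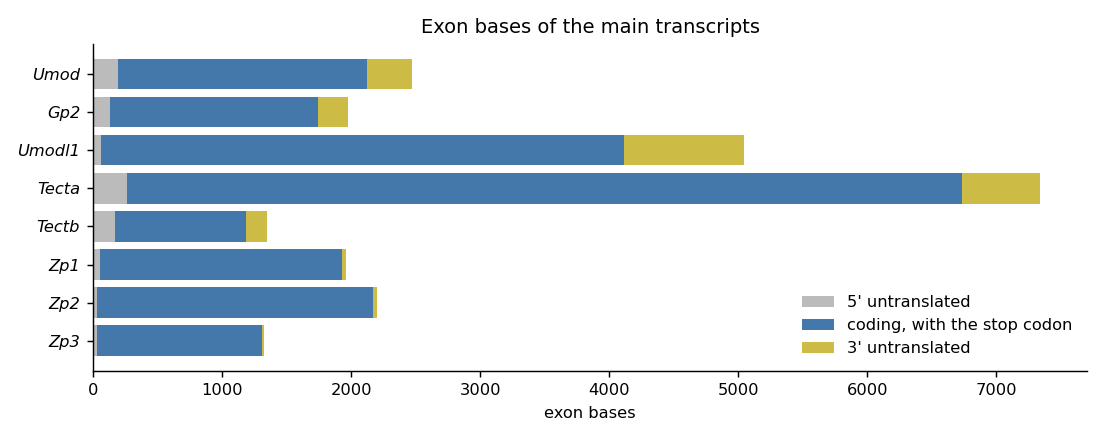
Exon bases of the main transcript of each gene, split into 5′ untranslated, coding (with the stop codon) and 3′ untranslated bases. The egg coat genes have 48 to 91 untranslated bases in all, and the other 5 genes have 329 to 994.

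The 8 genes had 19 transcripts, of which 16 were coding. Umod, Gp2 and Zp2 had a single transcript, 3 of 8 genes against 46.2% of all coding genes. In the later GENCODE release M21 the same gene IDs had 32 transcripts, with 6 in place of 1 for Umod, 2 in place of 1 for Gp2, 6 in place of 3 for Umodl1 and 5 in place of 1 for Zp2. The coding positions of all 8 main transcripts were the same in both annotations, and all 8 had a start codon ATG and a stop codon in sequence. For Gp2, however, M21 held a second transcript with a longer coding part, of 1671 in place of 1605 bases in 9 in place of 10 coding exons. Its first 7 coding exons had the lengths given above, and it ended with exons of 45 and 210 bases and with junction phases 0 and 0. By the rule of the longest coding length it would be taken for Gp2 in that release, and the likeness of Umod and Gp2 over the last coding exons holds for the deposited transcript. Among the 16 coding transcripts, 3 did not begin with ATG and 2 did not end with a stop codon, although each had a start codon row and a stop codon row. These were shorter transcripts of Tectb, Zp1 and Zp3.

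Reads were assigned by gene name over exon bases, so shared bases would matter for counting. The span of 1 of 8 genes overlapped that of another gene name, against 34.0% of coding genes. It was Umodl1, with Gm24026 inside an intron and no exon base in common. All exon bases of the 8 genes (100.0%) were therefore under their own name only. The nearest coding gene was 1983 bases away for Tectb (Gucy2g), 3593 for Umod and Gp2, 4727 for Zp1 (Prpf19), 5567 for Zp3 (Srcrb4d), 11368 for Zp2 (Tmem159), 12386 for Tecta (Tbcel) and 18168 for Umodl1 (Glp1r). The median over the 8 was 5147 bases and that over all coding genes 5644. Upstream of Umod the nearest coding gene was Pdilt, at 7331 bases, and downstream of Gp2 it was Gpr139, at 258169 bases, with Gm23321, a gene without coding rows, at 136295 bases. Zp2 lay on the same chromosome, 653105 bases from Umod with 13 coding genes between them.

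Of 9 further ZP domain genes on a list set beside the 8, 7 were found by name or synonym (Eng, Tgfbr3, Tgfbr3l, Cuzd1, Dmbt1, Oit3 and Zpld1), and Zp4 and Zp4-ps were not. The first coding junction was in phase 1 in 7 of 7. Phase 1 made up 65 of 106 of their junctions (61.3%), and 26 of 60 (43.3%) without Dmbt1, a gene with many repeated exons. The run 0, 2, 2, 0, 1 was found in 1 of them, Zpld1. A phase 2 junction followed by a cysteine codon was found in 4 of 7, and with phase 0 at the next junction in 2 of 7, Oit3 and Zpld1. Hpn, the gene for the protease hepsin that cleaves uromodulin, Astl, the gene for the egg protease ovastacin that cleaves ZP2, and the inner ear genes Ceacam16, Otoa and Otog formed a second list. They had 50 of 107 junctions in phase 1 (46.7%), 5 of 5 first junctions in phase 1, and 0 of 5 had the run 0, 2, 2, 0, 1.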

How the data were processed

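RNA from 6 mTAL libraries was sequenced. According to the study's methods and the submitters' processing notes, reads were base-called with CASAVA 1.8, aligned to mm10 with STAR 2.3.0, counted with HTSeq over exon rows by gene name in union mode and analysed with limma. The file used here is the deposited gene annotation (mm10 ensGene with rows of a construct added by the authors), which holds positions and frames and no counts, so depth does not bear on the values. From it, transcripts were rebuilt, the transcript with the longest coding length (CDS rows plus stop codon) was taken per gene, and the phase of each junction was read from the frame column. Sequence came from GENCODE release M21 transcripts on GRCm38 at the same coding positions. No protein table was used: translations of these sequences were aligned locally with Biopython 1.88 (BLOSUM62, gap opening 11, extension 1), and junctions were matched within 2 aligned residues. Scripts ran under Python 3.11.15 and were tested on simulated gene models. Named genes were the 8 members, their nearest coding genes on either side, genes that overlap them, the 5 genes most like Umod in exon lengths and phases, and 2 lists of related genes; other genes named were chosen after their values were seen. Members and lists were chosen with earlier results of these data known. Libraries were grouped by their titles, and no comparison between the groups was made.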

Additional observations from a re-analysis of the deposited data

How the results depend on the processing

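Of 22 other ways of processing, 20 left the value they were tried on at the same size, taken as within 1.5 times for counts and lengths and within the exact (Clopper-Pearson) 95% binomial interval for shares. Some of the 22 could hardly change the value, such as leaving out the stop codon (median coding length 1897.5 in place of 1900.5 bases). The interval takes junctions as independent, although those of the members lie in 8 related genes. Counting each distinct junction of all coding transcripts gave 32.8% of junctions of all genes in phase 1, in place of 32.5%, a move past an interval that is narrow because so many junctions were counted. With exon bases in place of gene spans, 0 of 8 genes overlapped another gene name, in place of 1. An alternative chosen after seeing the data, GENCODE release M21 in place of the deposited annotation, gave 32 transcripts for the 8 genes in place of 19. The median untranslated length over the 8 genes was 458 bases with the longest value per gene and 351 bases with the main transcript. Leaving out each gene in turn gave 44.0% (without Umodl1) to 50.0% (without Tecta) of junctions in phase 1. No paired analysis was possible because no result came from a test between samples. Depth limits none of these values, which depend on how completely the transcripts were annotated.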
